A study of Homo sapiens with 8 samples.

Results

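Epithelial to mesenchymal transition (EMT) is driven by a small group of transcription factors, and 8 of their genes were followed here on bead arrays of human neuroblastoma cells: SNAI1, SNAI2, TWIST1, TWIST2, ZEB1, ZEB2, PRRX1 and EOMES. Their probes were taken by gene symbol, from the symbols that the array table gives. The genes themselves were chosen with earlier results of these data known. The study had named SNAI1, SNAI2, TWIST1 and EOMES as changed with TRPM7 shRNA on these arrays. Counts of these genes past a threshold are therefore no unselected comparison. Of 31426 symbols in the table the chosen genes are 8, and 12 of its 47322 probes carry them. TWIST2 has 3 probes, SNAI2 and PRRX1 have 2 each, and the other genes have 1.

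The arrays were Illumina HumanHT-12 v4 bead chips, which measure RNA by hybridization to short probes. SH-EP2 and SH-SY5Y are neuroblastoma cell lines, labelled epithelial-like and neuroblastic, and both were transduced with lentivirus. In each line the cells carried either a shRNA against TRPM7, an ion channel fused to a kinase, or a scrambled shRNA as control, and each of these 4 groups has 2 arrays. All groups therefore share lentiviral transduction and, per the study's methods, puromycin selection. The study's methods describe 1 TRPM7 shRNA used in both lines and a second, independent one in SH-EP2 cells, and neither they nor the labels say which was on the arrays. With 1 kind of TRPM7 shRNA per line in the labels, off-target binding cannot be told apart from loss of TRPM7 on these arrays. Outside the arrays, the study reports lower SNAI2 by quantitative RT-PCR after TRPM7 knockdown in both lines. It also reports that overexpressed TRPM7 induced SNAI2 in a mouse neuroblastoma line. The labels give the same basal medium for both lines while the methods give different ones, and medium and cell line cannot be told apart. The methods say that samples were prepared in duplicate from cell cultures, without saying whether the 2 replicates of a group came from separate cultures, so the p-values measure the spread between these arrays, which may be technical.

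SNAI1 and SNAI2 are zinc finger repressors that bind E-boxes, short DNA motifs, in promoters of epithelial genes such as the E-cadherin gene. ZEB1 and ZEB2 are larger zinc finger repressors of the same kind of site, TWIST1 and TWIST2 are basic helix-loop-helix factors, PRRX1 is a homeodomain factor of mesenchyme, and EOMES is a T-box factor of the early embryo. In the neural crest, the embryonic tissue from which neuroblastoma arises, several of these factors accompany the delamination and migration of progenitor cells.

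Array medians lay between 104.7 and 119.9, and 40.8% to 44.2% of all probes were detected, meaning a detection p under 0.05 against the negative control beads. Of the 12 probes, 11 were detected on at least 1 array and 4 on all 8 arrays. TRPM7 has 1 probe, undetected throughout (signals 107.6 to 119.2), so that the knockdown could not be checked from these data. The labels of the lines were followed by marker genes. Of 12 noradrenergic neuroblastoma genes, 11 were detected on both SH-SY5Y control arrays and TH on none, with a median log2 signal of 11.03 against 2.94 in SH-EP2 control cells. All 12 mesenchymal neuroblastoma genes were detected in SH-EP2 control cells, with a median of 10.68 against 6.01 in SH-SY5Y control cells. Neither set was confined to 1 line. On both SH-SY5Y control arrays 8 of the mesenchymal genes were detected, and on both SH-EP2 control arrays 5 of the noradrenergic genes. Of 6 epithelial markers, KRT8 and KRT18, keratins of simple epithelia, were detected on both SH-EP2 control arrays, whereas CDH1, the E-cadherin gene, was undetected in both lines and EPCAM in SH-EP2 cells. The defining epithelial cadherin was thus not detected in the cells labelled epithelial-like.

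The promoters of the members that differed between the lines are shown first, because E-boxes are the sites that SNAI, TWIST and ZEB factors read. RefSeq (GRCh38.p14) windows, from 250 bases before to 50 bases after a start site, matched 5 of the 8 genes, with 7 windows for ZEB1. The windows of PRRX1, EOMES, TWIST2 and ZEB2 read as follows, 5′ to 3′, with every CANNTG in capitals (this motif is its own reverse complement, and CAGGTG and CACCTG are special cases of it).
PRRX1 promoter (chr1:170663881-170664180, plus strand): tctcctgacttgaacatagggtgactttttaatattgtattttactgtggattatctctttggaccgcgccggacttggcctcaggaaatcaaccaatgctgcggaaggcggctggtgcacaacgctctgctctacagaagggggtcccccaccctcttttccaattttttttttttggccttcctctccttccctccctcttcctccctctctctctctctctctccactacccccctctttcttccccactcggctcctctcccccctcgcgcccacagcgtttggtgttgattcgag
EOMES promoter (chr3:27722274-27722573, minus strand): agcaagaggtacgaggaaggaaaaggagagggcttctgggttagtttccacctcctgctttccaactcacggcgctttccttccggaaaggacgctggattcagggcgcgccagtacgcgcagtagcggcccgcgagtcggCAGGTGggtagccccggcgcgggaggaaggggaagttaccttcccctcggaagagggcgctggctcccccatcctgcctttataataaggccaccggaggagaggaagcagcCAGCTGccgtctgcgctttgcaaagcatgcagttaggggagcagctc
TWIST2 promoter (chr2:238847835-238848134, plus strand): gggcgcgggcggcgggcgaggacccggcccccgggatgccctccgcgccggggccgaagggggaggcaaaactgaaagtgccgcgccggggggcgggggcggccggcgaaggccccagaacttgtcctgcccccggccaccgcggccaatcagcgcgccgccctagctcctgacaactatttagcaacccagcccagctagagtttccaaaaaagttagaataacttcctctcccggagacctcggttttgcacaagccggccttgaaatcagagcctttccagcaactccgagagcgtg
ZEB2 promoter (chr2:144520070-144520369, minus strand): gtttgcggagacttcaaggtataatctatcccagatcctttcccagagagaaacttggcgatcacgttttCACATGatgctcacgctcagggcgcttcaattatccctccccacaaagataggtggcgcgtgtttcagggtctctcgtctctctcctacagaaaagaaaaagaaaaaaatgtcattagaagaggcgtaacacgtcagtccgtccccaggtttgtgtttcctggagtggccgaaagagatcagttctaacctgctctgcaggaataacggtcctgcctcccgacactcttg
The EOMES window holds 1 CAGGTG, beginning at position -109 from the start site, and 2 CANNTG in all. The ZEB2 window holds 1 CANNTG, and those of PRRX1 and TWIST2 hold 0. For ZEB1, 2 of the 7 windows hold CAGGTG or CACCTG on the printed strand, which covers both strands. Among all 35116 windows of this length, 20.6% hold CAGGTG or CACCTG and 68.7% hold CANNTG. A match is a description of letters, and binding was not measured.

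Signals are given as deposited, on a linear scale on which the arrays' background lay between 98.3 and 111.1, and then as log2 of background-corrected and quantile-normalized signal, with the SD over n = 2 arrays. Folds were fitted on the log2 scale with limma, with Benjamini-Hochberg adjustment over all 47322 probes and a threshold of 0.05 on the adjusted p. Where a gene was detected on neither array of a group, its fold is a bound against the lowest detected signals.

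SNAI2 was the member that fell with TRPM7 shRNA in both cell lines. Its brighter probe (ILMN_2082585) read 814 and 673 in SH-EP2 control cells and 356 and 357 with TRPM7 shRNA. In SH-SY5Y cells the same probe read 283 and 217 in control cells and 134 and 148 with TRPM7 shRNA. In each line both TRPM7 shRNA arrays lay below both control arrays, and the probe was detected on all 8 arrays. On the log2 scale SNAI2 was 9.32 ± 0.11 in SH-EP2 control and 7.93 ± 0.0082 in SH-EP2 TRPM7 shRNA cells (SD, n = 2), a change of -1.39 (standard error 0.18, adjusted p = 6.68e-05). In SH-SY5Y cells it went from 7.23 ± 0.099 to 4.46 ± 0.42 (SD, n = 2), a change of -2.77 (standard error 0.18, adjusted p = 1.24e-08). The 4 groups were thus ordered SH-EP2 control, SH-EP2 TRPM7 shRNA, SH-SY5Y control and SH-SY5Y TRPM7 shRNA, with no overlap of arrays between neighbours.

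The second SNAI2 probe (ILMN_1655740) was dimmer and moved the same way. It read 433 and 408 in SH-EP2 control cells against 255 and 232 with TRPM7 shRNA, and 184 and 156 in SH-SY5Y control cells against 122 and 136. Both probes of the gene were therefore lower in both lines. The changes of the second were -1.27 (standard error 0.24, adjusted p = 0.00385) in SH-EP2 and -2.40 (standard error 0.24, adjusted p = 3.93e-06) in SH-SY5Y cells. Its log2 SD was 0.67 in SH-SY5Y TRPM7 shRNA and 0.011 in SH-SY5Y control cells (n = 2 each). In SH-EP2 cells its call was lost without SH-EP2 control replicate 1 (adjusted p = 0.0525), control replicate 2 (0.0704) or TRPM7 shRNA replicate 2 (0.0733). It was also lost, in both lines, when eBayes ignored the intensity trend (adjusted p = 0.227 for SH-EP2, 0.0859 for SH-SY5Y) and with a per-probe test without eBayes (0.320 and 0.165). For the brighter probe the SH-EP2 call was lost under these 2 settings only (adjusted p = 0.0995 and 0.152), and the SH-SY5Y call with the per-probe test (0.0747). The lowest reading of the second probe, in SH-SY5Y TRPM7 shRNA replicate 1, had a detection p of 0.039, close to the limit of detection.

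**Figure D1:**
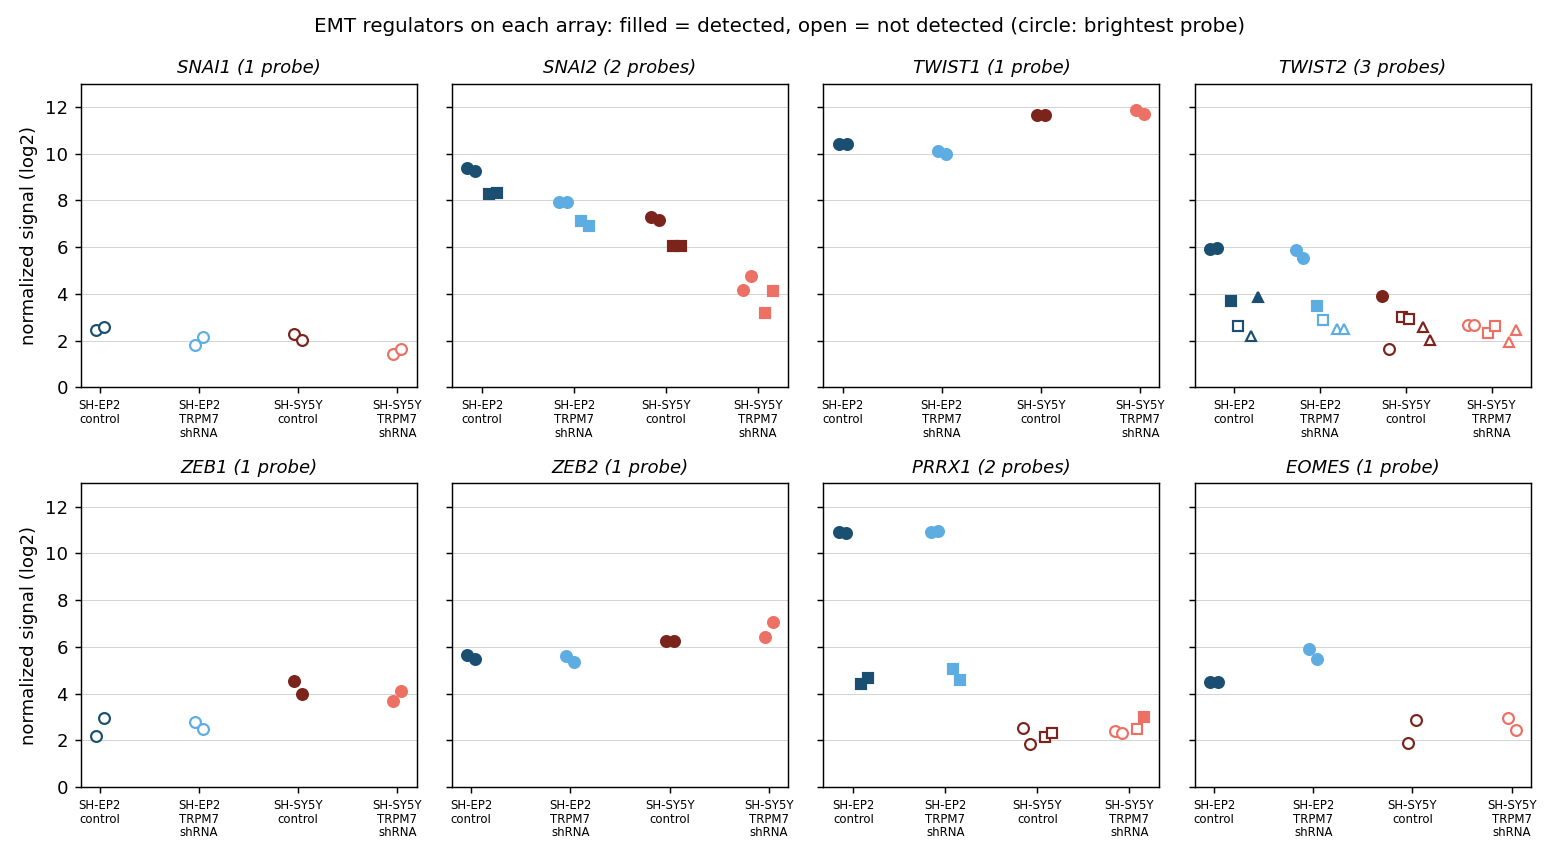
Normalized log2 signal (vertical axis) of every probe of the 8 genes on each of the 8 arrays, by group. Filled symbols were detected and open symbols were not, with circles for the brightest probe of a gene. SNAI2 steps down with TRPM7 shRNA in both lines, PRRX1 is detected by its brightest probe in SH-EP2 cells only, and SNAI1 is open throughout.

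The size of the SNAI2 decrease in SH-SY5Y cells depended on how background was removed. Taken as deposited, the mean signal of the brighter probe with TRPM7 shRNA was 47.9% of control in SH-EP2 cells and 56.6% of control in SH-SY5Y cells. After background correction and normalization these values were 38.1% and 14.7%. The fitted log2 decrease was larger in SH-SY5Y than in SH-EP2 cells by 1.38 (standard error 0.25, adjusted p = 0.00425). This difference between the lines was 0.66 with neqc (adjusted p = 0.0727), 0.078 with normexp at an offset of 50 (adjusted p = 0.907), and reversed to -0.12 without background correction (adjusted p = 0.782). It also failed to pass with median scaling (1.22, adjusted p = 0.0648) and without SH-EP2 control replicate 2 (1.30, adjusted p = 0.0514). For the second probe it was 1.13 and did not pass (adjusted p = 0.142). The decrease within each line passed the threshold with all 4 ways of removing background, and for the brighter probe it spanned -1.08 to -1.39 in SH-EP2 cells and -0.96 to -2.77 in SH-SY5Y cells. The order of the lines by the size of their SNAI2 decrease is therefore not settled by these arrays.

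**Figure D2:**
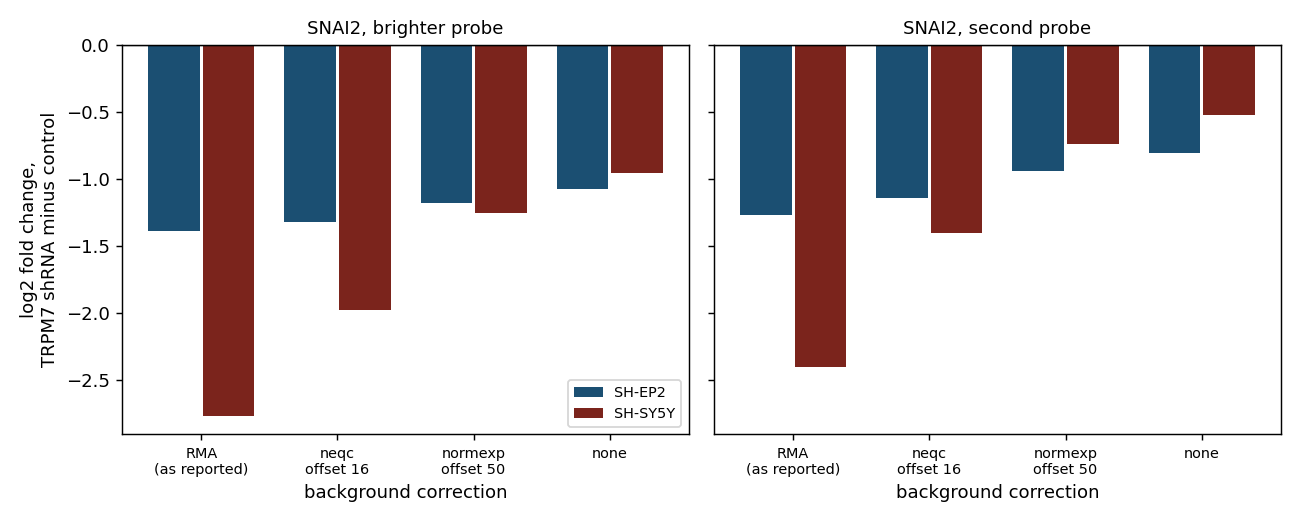
Fitted log2 fold change of SNAI2, TRPM7 shRNA minus control (vertical axis), in SH-EP2 and SH-SY5Y cells under 4 ways of removing background (horizontal axis), for the brighter probe (left) and the second probe (right). All bars lie below 0, and the SH-SY5Y bar of the brighter probe shrinks from -2.77 to -0.96 while the SH-EP2 bar goes from -1.39 to -1.08.

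SNAI1 was measured by 1 probe, at background throughout. It read 115 and 113 in SH-EP2 control, 109 and 112 in SH-EP2 TRPM7 shRNA, 106 and 98.0 in SH-SY5Y control, and 99.5 and 104 in SH-SY5Y TRPM7 shRNA cells. The lowest detection p was 0.165. These signals lie within the background, so that no fold is given and a change of SNAI1 was not detectable on these arrays.

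TWIST1 differed from SNAI2 in the direction of its difference between the lines and in its response. It read 1544 and 1397 in SH-EP2 control cells, 1210 and 1157 in SH-EP2 TRPM7 shRNA cells, 3612 and 2701 in SH-SY5Y control cells, and 3905 and 3891 in SH-SY5Y TRPM7 shRNA cells. Both SH-EP2 TRPM7 shRNA arrays lay below both control arrays, and both SH-SY5Y TRPM7 shRNA arrays lay above theirs. TWIST1 fell in SH-EP2 cells, from 10.42 ± 0.0058 to 10.06 ± 0.070 (SD, n = 2), a change of -0.37 (standard error 0.080, adjusted p = 0.0117). In SH-SY5Y cells its change of 0.14 did not pass (95% confidence interval -0.031 to 0.30, adjusted p = 0.578). The responses of the lines differed by -0.50 (standard error 0.11, adjusted p = 0.0256).

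These TWIST1 calls were lost in several fits that left out 1 array, while the fitted values moved little. In those fits the SH-EP2 change spanned -0.42 to -0.32 and the difference between the lines -0.57 to -0.43. Such a fit leaves 1 array in a group, so that a lost call need not point at the array left out. The decrease in SH-EP2 cells kept its direction but no longer passed without SH-EP2 control replicate 1 (adjusted p = 0.105), control replicate 2 (0.102) or TRPM7 shRNA replicate 2 (0.183). The difference between the lines was lost in 7 of the 8 fits that left out 1 array, with adjusted p-values from 0.0521 to 0.162, and when replicate number entered the fit as a replicate block (adjusted p = 0.0683). Neither TWIST1 call passed when eBayes ignored the intensity trend (0.484 and 0.566) or with the per-probe test (0.162 and 0.251). As deposited, the mean TWIST1 signal with TRPM7 shRNA was 80.5% of control in SH-EP2 cells.

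TWIST2, the close relative of TWIST1, was detected on both arrays of a group by 1 of its 3 probes. That probe (ILMN_1677429) read 177 and 168 in SH-EP2 control cells and 175 and 160 with TRPM7 shRNA, a change of -0.22 (95% confidence interval -1.26 to 0.82, adjusted p = 0.930). In SH-SY5Y cells it was detected on 1 of the 4 arrays, control replicate 1, at 125. The other TWIST2 probes were detected on 2 SH-EP2 arrays (ILMN_1721383) and on 1 SH-EP2 array (ILMN_1742730), at signals of 125 to 129, and showed no call in any comparison.

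The ZEB genes were measured by 1 probe each. ZEB2, detected on all 8 arrays, read 167 and 152 in SH-EP2 control, 164 and 155 in SH-EP2 TRPM7 shRNA, 193 and 164 in SH-SY5Y control, and 207 and 273 in SH-SY5Y TRPM7 shRNA cells. The SH-EP2 groups overlapped, and both SH-SY5Y TRPM7 shRNA arrays lay above their controls and apart from each other. The fitted changes were -0.11 in SH-EP2 (95% confidence interval -0.58 to 0.36, adjusted p = 0.921) and 0.50 in SH-SY5Y cells (95% confidence interval 0.026 to 0.97, adjusted p = 0.403), and neither passed. The difference between the lines was -0.61 (adjusted p = 0.542).

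ZEB1 was not detected on any SH-EP2 array, at signals of 112 to 121, and was detected on all 4 SH-SY5Y arrays. There it read 135 and 116 in control and 128 and 136 in TRPM7 shRNA cells, so that the groups overlapped. The change was -0.36 (95% confidence interval -1.35 to 0.64, adjusted p = 0.867), an interval wide enough to hold a decrease of over 1 on the log2 scale.

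PRRX1 separated the lines and did not pass in response to TRPM7 shRNA. Its brightest probe (ILMN_1739496) read 2139 and 1884 in SH-EP2 control cells and 2077 and 2190 with TRPM7 shRNA. In SH-SY5Y cells it read 95.8 to 113 and was not detected. The SH-EP2 change was 0.043 (95% confidence interval -0.37 to 0.46, adjusted p = 0.968). The second probe (ILMN_1811851) was dim, at 135 to 150 in SH-EP2 cells, with a change of 0.31 (95% confidence interval -0.61 to 1.22, adjusted p = 0.868).

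EOMES was detected on the SH-EP2 arrays and on no SH-SY5Y array. It read 139 and 132 in SH-EP2 control cells and 175 and 159 with TRPM7 shRNA, so that both TRPM7 shRNA arrays lay above both control arrays. The change of 1.19 (standard error 0.43, 95% confidence interval 0.28 to 2.10) had an unadjusted p of 0.0129 and did not pass after adjustment (adjusted p = 0.195). It passed under 3 alternatives: with normexp at an offset of 50, where it was 0.40 (adjusted p = 0.0318), without background correction, where it was 0.28 (adjusted p = 0.0194), and with the SH-EP2 arrays normalized and fitted alone, where it was 1.17 (adjusted p = 0.00755). Since EOMES was undetected in both SH-SY5Y groups, no difference in response between the lines is given.

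In SH-EP2 cells, 3 of the 12 probes, of 2 genes, thus passed with TRPM7 shRNA, and all were lower. Over all probes 3.02% passed in this comparison, and 5.93% of those detected on at least 1 of its arrays, of which 10 are member probes. In SH-SY5Y cells 2 of the 12 probes passed, both of SNAI2 and both lower, against 2.11% of all probes and 3.95% of those detected, of which 7 are member probes. The difference between the lines passed for 2 of the 12 probes, against 1.4% of all probes and 2.32% of those detected on at least 1 array. The median fitted change over the 12 probes was -0.16 for SH-EP2 and -0.11 for SH-SY5Y, against 0.0061 and 0.0048 over all probes. At an unadjusted p under 0.05 the counts were 4, 3 and 3 probes. Among all 47322 probes they were 5940, 5390 and 4879 in the same comparisons.

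**Figure D3:**
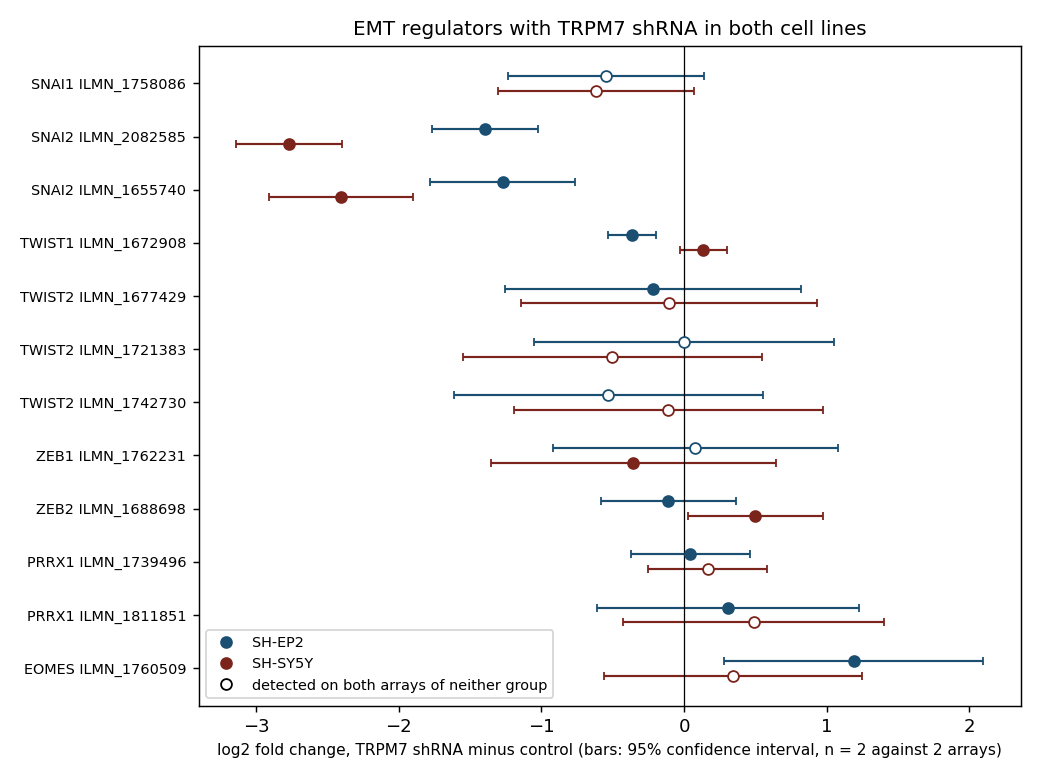
Fitted log2 fold change, TRPM7 shRNA minus control (horizontal axis), with 95% confidence intervals for each probe of the 8 genes in SH-EP2 and SH-SY5Y cells (n = 2 against 2 arrays). Open circles mark comparisons in which neither group was detected on both arrays. The SNAI2 intervals lie below 0 in both lines, that of TWIST1 in SH-EP2 cells, and those of EOMES in SH-EP2 cells (0.28 to 2.10) and of ZEB2 in SH-SY5Y cells (0.026 to 0.97) lie above 0, though neither passed after adjustment.

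The levels in control cells showed which of these factors each line expressed. SNAI2, TWIST2, PRRX1 and EOMES were higher in SH-EP2 control cells, and TWIST1, ZEB1 and ZEB2 were higher in SH-SY5Y control cells. Of the 12 probes, 9 passed in this comparison, 6 higher and 3 lower in SH-EP2 cells, against 26.2% of all probes and 48.1% of those detected on at least 1 control array. The lines differed in much of the table, so that a call here is common.

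PRRX1 was at least 215-fold higher in SH-EP2 control cells by its brightest probe (adjusted p = 1.21e-17) and at least 2.58-fold higher by the second (adjusted p = 3.35e-04). These bounds, like those below, hold for the RMA background correction. Without background correction the log2 difference of the brightest PRRX1 probe was 4.23 in place of 8.73 (adjusted p = 4.65e-25). The log2 difference for SNAI2 was 2.09 (standard error 0.18, adjusted p = 7.73e-09), and 2.23 with its second probe. TWIST2 was higher by 3.16 (standard error 0.50, adjusted p = 3.47e-05), a value that moves with the SH-SY5Y control arrays, on which it was detected once, and left out 1 array at a time it ranged from 2.04 to 4.25. It was 0.61 without background correction, and did not pass with the per-probe test (adjusted p = 0.0746). EOMES was at least 2.56-fold higher (adjusted p = 5.62e-04), and without background correction its log2 difference was 0.30 in place of 2.14 (adjusted p = 0.00209).

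In the other direction, TWIST1 was lower in SH-EP2 control cells, with a log2 difference of -1.24 (standard error 0.080, adjusted p = 1.29e-10). ZEB1 was at least 2.03-fold lower (adjusted p = 0.0103), a call lost without SH-EP2 control replicate 1 (adjusted p = 0.110) or SH-SY5Y control replicate 1 (0.106) and with the per-probe test (0.0549). Without background correction its log2 difference was -0.23 in place of -1.69 (adjusted p = 0.0133). The ZEB2 difference of -0.66 (standard error 0.23, adjusted p = 0.0352) was lost without any 1 of the 4 control arrays (adjusted p = 0.0644 to 0.188). SNAI1 was not detected in either line.

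Genes known to change in EMT were followed as lists, each gene by its brightest probe. Of 24 mesenchymal genes, 2 were higher and 11 lower in SH-EP2 cells with TRPM7 shRNA, with a median change of -0.42 against 0.0061 over all probes, of which 3.02% passed (5.93% of those detected). The examples with the largest decreases were ACTA2, smooth muscle actin (-1.66, adjusted p = 7.25e-10), COL1A2, a chain of type I collagen (-1.56, adjusted p = 0.00150), POSTN, a matrix protein (-1.55, adjusted p = 0.00151), and CDH11, a mesenchymal cadherin (-1.30, adjusted p = 1.52e-07). CD44 and TNC were the 2 genes that rose. With any 1 SH-EP2 array left out, the list's median change stayed between -0.43 and -0.33. Fewer of its genes passed in each of these fits, and so did fewer of all probes. The smaller counts therefore need not point at the array left out. With eBayes without an intensity trend 1 was lower and 0 higher, and with the per-probe test 2 were lower and 0 higher. Median scaling left 9 lower and 0 higher.

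In SH-SY5Y cells 6 of the 24 mesenchymal genes were higher and 3 lower with TRPM7 shRNA, with a median change of -0.027, where 2.11% of all probes and 3.95% of those detected passed. ACTA2 rose by 1.07 (adjusted p = 2.50e-07), TAGLN, an actin-binding protein of smooth muscle, by 0.92 (adjusted p = 7.60e-05) and CDH11 by 0.81 (adjusted p = 5.86e-05). LOX, which cross-links collagen, was at least 3.30-fold higher (adjusted p = 8.15e-05), being undetected in SH-SY5Y control cells. With any 1 SH-SY5Y array left out, the list's median change lay between 0.051 and 0.080. The counts of higher and lower genes changed in each of these fits, in which fewer of all probes passed. With eBayes without an intensity trend both counts were 0, and so they were with the per-probe test. The test of the difference between the lines passed for 7 of the 24 genes, against 1.4% of all probes, with 5 differences below and 2 above 0. Below 0 were, among others, ACTA2 (-2.73, adjusted p = 1.94e-10), CDH11 (-2.11, adjusted p = 5.16e-08) and TAGLN (-1.97, adjusted p = 7.86e-07), and above 0 were S100A4 (0.91, adjusted p = 2.87e-04) and VIM (0.42, adjusted p = 0.0230), the vimentin gene. The counts below and above 0 were 9 and 3 with normexp, 10 and 3 without background correction, 1 and 0 when eBayes ignored the intensity trend, and 0 and 0 with the per-probe test. SNAI2 was lower in both lines, and a link between it and these genes was not tested.

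**Figure D4:**
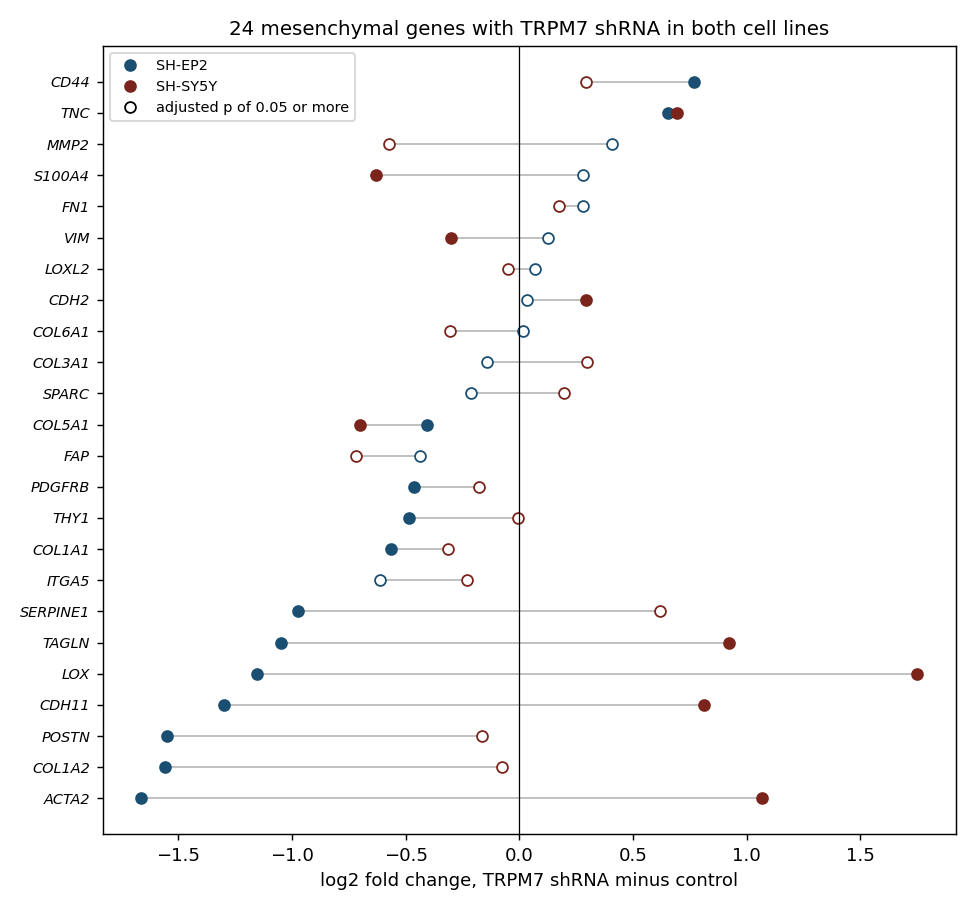
Fitted log2 fold change, TRPM7 shRNA minus control (horizontal axis), of 24 mesenchymal genes in SH-EP2 and SH-SY5Y cells. Filled circles passed the threshold on the adjusted p. ACTA2, CDH11, TAGLN and LOX lie on opposite sides of 0 in the lines, LOX in SH-SY5Y cells at a fitted value against undetected control cells.

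Of 28 epithelial genes that EMT factors are known to repress, 3 were higher and 1 lower in SH-EP2 cells with TRPM7 shRNA, against 3.02% of all probes. When eBayes ignored the intensity trend 1 was higher and 0 lower, and with the per-probe test 0 passed. CLDN1, a tight junction protein, rose by 2.65 (adjusted p = 9.64e-06), JUP, the junction protein plakoglobin, by 0.94 (adjusted p = 6.69e-04) and LAMA5, a laminin chain, by 0.41 (adjusted p = 0.0227), while MUC1, a membrane mucin, fell by 0.56 (adjusted p = 0.0306). In SH-SY5Y cells 0 of the 28 passed with limma or the per-probe test. An unadjusted p under 0.05 was found for 4 of them, against 5390 of all 47322 probes. The list's median change was -0.062 for SH-EP2 and -0.11 for SH-SY5Y, and only 13 and 9 of its genes were detected in these comparisons. The MUC1 call was lost without any 1 of the 4 SH-EP2 arrays, and without background correction 3 genes were higher and 4 lower. CDH1 itself was at background.

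Among 24 other transcription factors of EMT and the neural crest, 1 was higher and 4 lower in SH-EP2 cells with TRPM7 shRNA, against 3.02% of all probes. With any 1 SH-EP2 array left out, the list's median change lay between -0.081 and 0.060. Fewer of these factors were then called lower, and fewer of all probes passed. When eBayes ignored the intensity trend 1 factor was lower. LEF1, a partner of beta-catenin, was at least 3.21-fold lower (adjusted p = 2.77e-05), HIF1A, the hypoxia factor, fell by 0.69 (adjusted p = 0.0112), FOXC1, a forkhead factor, fell by 0.56 (adjusted p = 6.98e-04), and SOX9, a neural crest factor, rose by 0.94 (adjusted p = 0.00126). In SH-SY5Y cells 0 were higher and 4 lower, against 2.11% of all probes. These were ID1 (-0.79, adjusted p = 1.76e-05) and ID3 (-0.59, adjusted p = 5.51e-04), which hold basic helix-loop-helix factors inactive, TCF4, one such factor (-0.60, adjusted p = 0.00147), and SOX4 (-0.52, adjusted p = 0.00578). ID3 was the fourth gene lower in SH-EP2 cells (-0.50, adjusted p = 0.00225). The study had itself named LEF1, HIF1A and SOX9 in SH-EP2 cells, and ID3 in both lines, as changed on these arrays. The share of this list that passed is therefore no independent result. With the per-probe test 0 of the 24 factors passed in either line.

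Some markers of the cell types also moved with TRPM7 shRNA. Over all probes, 3.02% passed in SH-EP2 cells and 2.11% in SH-SY5Y cells (5.93% and 3.95% of those detected). Of the 12 noradrenergic genes 1 was higher and 2 lower in SH-EP2 cells, and 0 were higher and 3 lower in SH-SY5Y cells, where their summed signal ranged from 33275 to 42441 in control and from 31086 to 31574 in TRPM7 shRNA cells. Of the 12 mesenchymal neuroblastoma genes 1 was higher and 2 lower in SH-EP2 cells (summed signal 44329 to 48856 in control and 45506 to 45873 in TRPM7 shRNA cells), and 1 was higher and 1 lower in SH-SY5Y cells. Their part in the SNAI2 change was not tested.

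Of 25 corepressors and turnover factors of SNAI and ZEB proteins, such as CTBP1, HDAC1, GSK3B and BTRC, 0 passed with limma or the per-probe test in SH-EP2 cells. There 3 had an unadjusted p under 0.05, against 5940 of all 47322 probes. In SH-SY5Y cells FBXW7, a ubiquitin ligase subunit, rose by 0.58 (adjusted p = 0.0342), a call lost in 6 of the 8 fits that left out 1 array. Of 14 genes of TGF-beta input, an inducer of EMT, TGFBR2, a receptor, rose by 0.58 (adjusted p = 0.0120) and TGFB2, a ligand, fell by 1.23 (adjusted p = 0.0401) in SH-EP2 cells. In SH-SY5Y cells TGFB3, another ligand, fell by 1.32 (adjusted p = 0.00195). Over all probes, 3.02% passed in SH-EP2 cells and 2.11% in SH-SY5Y cells (5.93% and 3.95% of those detected). When eBayes ignored the intensity trend, and with the per-probe test, 0 genes of these 2 lists passed in either line. Both SH-EP2 calls were lost with median scaling and without any 1 of the 4 SH-EP2 arrays, and the TGFB3 call without SH-SY5Y TRPM7 shRNA replicate 1.

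Between the control cells of the lines, 20 of the 24 mesenchymal genes were higher and 2 lower in SH-EP2 cells, with a median difference of 3.40, against the 26.2% of all probes and 48.1% of those detected that passed here. TAGLN was higher by 9.00 (adjusted p = 8.51e-21) and POSTN at least 129-fold. Of the 28 epithelial genes 6 were higher and 2 lower in SH-EP2 cells, 28.6% of the list against 26.2% of all probes. Only 13 of the 28 were detected on at least 1 control array, and 48.1% of all probes so detected passed. Among the higher epithelial genes were KRT8, at least 56.1-fold, and KRT18, at least 28.9-fold. Of the other transcription factors 3 were higher and 9 lower, 50% of the list against 26.2% of all probes and 48.1% of those detected. Of the 24 listed, 20 were detected on at least 1 control array. TFAP2A, a neural crest factor, was at least 73.6-fold higher and PRRX2, the relative of PRRX1, at least 35.9-fold lower in SH-EP2 cells. PRRX1 and PRRX2 thus lay on opposite sides in the lines. Of the 25 corepressors and turnover factors 7 were higher and 9 lower, and of the 14 TGF-beta genes 8 were higher and 1 lower, with THBS1, an activator of latent TGF-beta, at least 422-fold higher.

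Several genes followed the levels of a member closely over the 8 arrays. By Pearson correlation of log2 signals among 13627 detected and variable probes, those most like SNAI2 were ANXA11 (r = 0.992), TOR1AIP1 (r = 0.991) and HLX (r = 0.990). For TWIST1 they were C9orf140, SCN9A and RARRES1, for TWIST2 VCX3A, KIAA0513 and ANK1, for ZEB1 TAF1A, FAM113A and LOC147727, for ZEB2 BAI1, C6orf66 and PNPLA8, for PRRX1 RARRES3, DSE and IFIT3, and for EOMES SDHAF2, SERINC2 and MPZL2. The 8 arrays form 4 groups in 2 lines, so that these values describe group differences above all, and no test was made.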

How the data were processed

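The 8 arrays (Illumina HumanHT-12 v4) were grouped by the cell line and shRNA of their labels, 2 per group. The authors extracted bead signal intensities with GenomeStudio 2011.1 and deposited them without normalization, on a linear scale, beside a detection p-value for each probe and array. The study's methods give Robust-Multi-Array normalization and no test. Here the RMA background model, quantile normalization over the 8 arrays and log2 were applied with no filter. The model was fitted in R 4.3.3 with limma 3.58.1 and statmod 1.5.0 (lmFit with 4 group means, eBayes using an intensity trend, two-sided, Benjamini-Hochberg over 47322 probes). Precision is limited by the number of arrays, and signals near the background carry little information. No 2 arrays held identical values.

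A gene is given first by its probe with the highest mean. From each list, up to 4 of the largest changes past the threshold, detected on both arrays of the brighter group, are named, and TAGLN, S100A4 and VIM in the difference between the lines and CD44, TNC and ID3 in SH-EP2 cells were added after their values were seen. RBM35A, AOF2 and JUB in the table are ESRP1, KDM1A and AJUBA. Bounds take, per array, the higher of the lowest detected signal and the probe's own. The members and lists were chosen with earlier results of these data known.

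As alternatives, background was handled by neqc (offset 16), by normexp (offset 50) or not at all, and the others were median scaling, a filter to probes detected on 2 or more arrays, eBayes with no trend, a per-probe test with equal variances over the 4 groups, each line alone, a replicate block, the mean over a gene's detected probes, and leaving out each array. The procedure was tested on simulated arrays. Promoters are from RefSeq tables of GRCh38.p14.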

Additional observations from a re-analysis of the deposited data

Results flagged for a closer look

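The TRPM7 shRNA effect differed between the cell lines for 2 member probes in the test of the difference itself. For SNAI2 (ILMN_2082585) the effect in SH-EP2 minus that in SH-SY5Y cells was 1.38 on the log2 scale (adjusted p = 0.00425), with a decrease in both lines. For TWIST1 it was -0.50 (adjusted p = 0.0256), with both SH-EP2 TRPM7 shRNA arrays below their controls and both SH-SY5Y arrays above. The SNAI2 difference moved with the background correction. The TWIST1 difference ranged from -0.57 to -0.43 with 1 array left out, and did not pass in most of these fits.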

How the results depend on the processing

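Of the 12 member probes, the count past the threshold in SH-EP2 cells was 3 and fell to 0 with eBayes without an intensity trend and to 0 with the per-probe test, and ranged from 1 to 3 with 1 array left out. In SH-SY5Y cells it was 2, and 1 without the trend, 0 with the per-probe test and 1 with the mean over a gene's probes, which counts genes. For the difference between the lines it was 2, and 1 with neqc, normexp, no background correction, median scaling or the replicate block, 0 without the trend, 0 with the per-probe test, and 0 to 3 with 1 array left out, 0 being without SH-EP2 control replicate 2. The count between the control groups stayed within 1.5 times its value of 9 throughout. Over all probes, 1429 passed in SH-EP2 cells and 100 without the trend or 103 with the per-probe test, and 999 in SH-SY5Y cells and 64 or 50. Of the 999, 382 were higher, against 553 of 837 with median scaling, with which the median of all probes was 0.092 in place of 0.0048.

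The direction reversed for ZEB2 in SH-EP2 cells without TRPM7 shRNA replicate 2 (-0.24 to 0.018 with 1 array left out), and for the difference between the lines of SNAI2 without background correction (-0.12), and of its second probe with normexp (-0.20) and without background correction (-0.29). The cause was not tested. Differences between replicates showed no positive correlation between the groups of a line. The values were r = -0.0045 for the SH-EP2 groups and -0.11 for the SH-SY5Y groups over 14577 probes. Whether arrays of the same replicate number were prepared together cannot be told from these correlations. With the replicate block 3 and 2 member probes passed in the lines, and with the SH-SY5Y numbers crossed, an alternative added after seeing the data, 2 passed.

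The SNAI2 decrease passed in both lines in every fit with 1 array left out for the brighter probe. Signals of SNAI1, ZEB1, EOMES, TWIST2 and the second PRRX1 probe lay near the background, which limits what their folds can show.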
